A study of Homo sapiens with 16 samples.

Results

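Transcripts of the oxidative phosphorylation machinery, encoded by the mitochondrial genome and by the nucleus, were followed in G401 cells after BRD9 deletion. Members were chosen by gene name: the mitochondrially encoded mRNAs and rRNAs, and the nuclear NDUF, SDH, UQCR, COX and ATP5 genes of complexes I to V. Pseudogene names, read-through names and genes with a mean below 1 TPM (a length-scaled share of all transcripts) were left out. This left 96 of the 57820 gene IDs in the files. They comprise 15 mitochondrial genes, of which 13 are mRNAs and 2 are rRNAs, and 81 nuclear IDs with 78 symbols. G401 is an established line from a kidney rhabdoid tumor, a tumor type defined by loss of the SWI/SNF subunit SMARCB1, and BRD9 is a bromodomain subunit of a non-canonical SWI/SNF complex. BRD9 KO cells were compared with LacZ cells, which received a guide against a bacterial gene that human cells lack, on days 1, 2, 3 and 5, with 2 libraries in each of 8 groups. Both arms are cell populations of a single line, and the event from which days were counted is not given in the sources used here.

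Oxidative phosphorylation couples electron transport in the inner mitochondrial membrane to ATP synthesis. Complex I takes electrons from NADH and complex II from succinate. Complex III passes them to cytochrome c, complex IV passes them on to oxygen, and complex V uses the resulting proton gradient to make ATP. Complexes I, III, IV and V are built from both genomes, complex II from nuclear genes alone. The mitochondrial genome is transcribed as long polycistronic RNAs from both strands, which are cut into mRNAs, rRNAs and tRNAs inside the organelle, whereas each nuclear subunit has its own promoter and its protein is imported.

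Library totals lay between 9185866 and 16560749 expected counts for BRD9 KO, and between 11252871 and 15430142 for LacZ. BRD9 was at 16.6 to 25.9 CPM (counts scaled to a common library size by TMM) in the 8 BRD9 KO libraries and at 45.8 to 64.5 CPM in the 8 LacZ libraries. SMARCB1 was at or near 0, and VIM, a mesenchymal marker of rhabdoid cells, was at 1366 to 1857 TPM in BRD9 KO cells, against 1425 to 1922 TPM in LacZ cells. The epithelial keratins KRT8 and KRT18 were higher in BRD9 KO cells on days 2, 3 and 5 (log2 fold changes of 0.14, 0.35 and 0.53 for KRT8), and VIM was lower on those days (-0.080, -0.068 and -0.072). The part of these shifts in the results was not tested. Markers of blood and endothelial cells were at or close to 0. Differences are BRD9 KO minus LacZ on a log2 scale from edgeR's quasi-likelihood test, and a gene was called at a Benjamini-Hochberg adjusted p under 0.05 over 15027 genes. All 96 members passed the count filter.

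All 13 mitochondrial mRNAs lie within a circle of 16569 bases, and MT-ND6 alone is read from the minus strand. Neighbouring genes share bases, so their reads cannot be fully told apart. MT-ATP8 and MT-ATP6, both subunits of the proton channel part of complex V, overlap by 46 bases at positions 8527 to 8572. MT-ND4L and MT-ND4, both membrane subunits of complex I, overlap by 7 bases at positions 10760 to 10766. Since these pairs bear on how separate the mitochondrial values are, the start of each overlap is shown on the plus strand of GRCh37, with the shared bases in capitals.
MT-ATP8 and MT-ATP6, chrM:8515-8544: ctgagaaccaaaATGAACGAAAATCTGTTC
MT-ND4L and MT-ND4, chrM:10748-10777: aaacctactccaATGCTAAaactaatcgtc
The ATG at the front of each shared stretch is the start codon of the downstream gene. The library kit does not mark strand, so reads of MT-ND6 cannot be told apart from plus-strand RNA over the same bases.

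Mitochondrial mRNAs were far more abundant than the nuclear members, per length. Mean TPM over the 16 libraries ran from 2536 (MT-ND5) to 15113 (MT-ATP6) for the mitochondrial mRNAs. For the nuclear members it ran from 4.92 to 859, with a median of 184. The most abundant nuclear members were NDUFS5, an accessory subunit, in complex I (592 TPM), the membrane anchor SDHC in complex II (257 TPM), the hinge protein UQCRH in complex III (510 TPM), COX7C in complex IV (859 TPM) and ATP5B, the catalytic beta subunit, in complex V (779 TPM). Together the 13 mitochondrial mRNAs took 9.13% to 11.9% of all TPM in a library, and the 81 nuclear IDs took 1.86% to 2.02%. How polyadenylated RNA was enriched or rRNA removed is not given in the sources used here, so the levels of the 2 mitochondrial rRNAs are compared only between libraries.

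Day 2 was the day with the most members called, and all of them were mitochondrial. All 13 mitochondrial mRNAs and both rRNAs were higher in BRD9 KO cells on that day, while 0 of 81 nuclear members were called. Of these 81, 15 had an unadjusted edgeR p under 0.05, as did 2077 of the 15027 genes tested. Over all genes 2.7% were called on day 2, and 1.12% were called higher. Among the 108 nuclear genes at least as abundant as the least abundant mitochondrial mRNA, 10.2% were called higher. Log2 fold changes of the mitochondrial mRNAs were between 0.12 and 0.28, with a median of 0.20, against -0.029 for the nuclear members and 0 for all genes. In bulk RNA, differences in the number of mitochondria, in mitochondrial genomes and in RNA from each cannot be told apart. Nor can differences in the share of a kind of cell and in RNA per cell.

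The complex I subunit MT-ND1 (GRCh37, chrM:3307-4262), part of the quinone-binding site, had 3235 and 3261 CPM in the BRD9 KO libraries, against 2659 and 2678 CPM in the LacZ libraries on day 2 (log2 fold change 0.28, SE 0.020, edgeR adjusted p = 6.77e-08). MT-ND5, a proton-pumping subunit of the same complex, had 2517 and 2441 CPM in BRD9 KO cells, against 2084 and 2045 CPM in LacZ cells (log2 fold change 0.26, SE 0.018, edgeR adjusted p = 3.56e-08). In both genes the BRD9 KO and LacZ libraries were clearly apart, with replicates close together. MT-CO1, the catalytic subunit of complex IV and the most abundant mitochondrial mRNA by CPM, had 10270.2 and 10418 CPM in BRD9 KO cells, against 9037 and 8927 CPM in LacZ cells (log2 fold change 0.20, SE 0.013, edgeR adjusted p = 1.17e-08). MT-CYB, the cytochrome b of complex III, had 3074 and 3124 CPM in BRD9 KO cells, against 2758 and 2757 CPM in LacZ cells (log2 fold change 0.17, SE 0.016, edgeR adjusted p = 3.29e-06). MT-ATP6, the channel subunit of complex V, had 5329 and 5334 CPM in BRD9 KO cells, against 4618 and 4649 CPM in LacZ cells (log2 fold change 0.20, SE 0.021, edgeR adjusted p = 9.52e-06). Every complex with mitochondrial subunits thus had its mitochondrial mRNAs higher. The median log2 fold change was 0.22 for the 7 of complex I, 0.17 for MT-CYB of complex III, 0.14 for the 3 of complex IV and 0.20 for the 2 of complex V.

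The smallest of these differences was that of MT-ND3, another membrane subunit of complex I, with 826 and 848 CPM in BRD9 KO cells, against 775 and 768 CPM in LacZ cells (log2 fold change 0.12, SE 0.025, edgeR adjusted p = 0.0133). Its call was lost without BRD9 KO replicate 2 or without LacZ replicate 1 or 2 of that day (edgeR adjusted p = 0.126, 0.0727 and 0.116). The other 12 mRNAs kept theirs whichever of the 4 libraries was left out, and with the length trend of the fold changes removed MT-ATP8 was not called (adjusted p = 0.0709). The large rRNA MT-RNR2 had 12986 and 13158 CPM in BRD9 KO cells, against 12115 and 11742 CPM in LacZ cells (log2 fold change 0.13, SE 0.020, edgeR adjusted p = 0.000516). The small rRNA MT-RNR1 had 663 and 665 CPM in BRD9 KO cells, against 616 and 612 CPM in LacZ cells (log2 fold change 0.11, SE 0.026, edgeR adjusted p = 0.0201). MT-RNR1 rested on all its libraries, since its call was lost without BRD9 KO replicate 1 or 2 or without LacZ replicate 1 or 2 of that day (edgeR adjusted p = 0.117, 0.0997, 0.109 and 0.14).

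**Figure D1:**
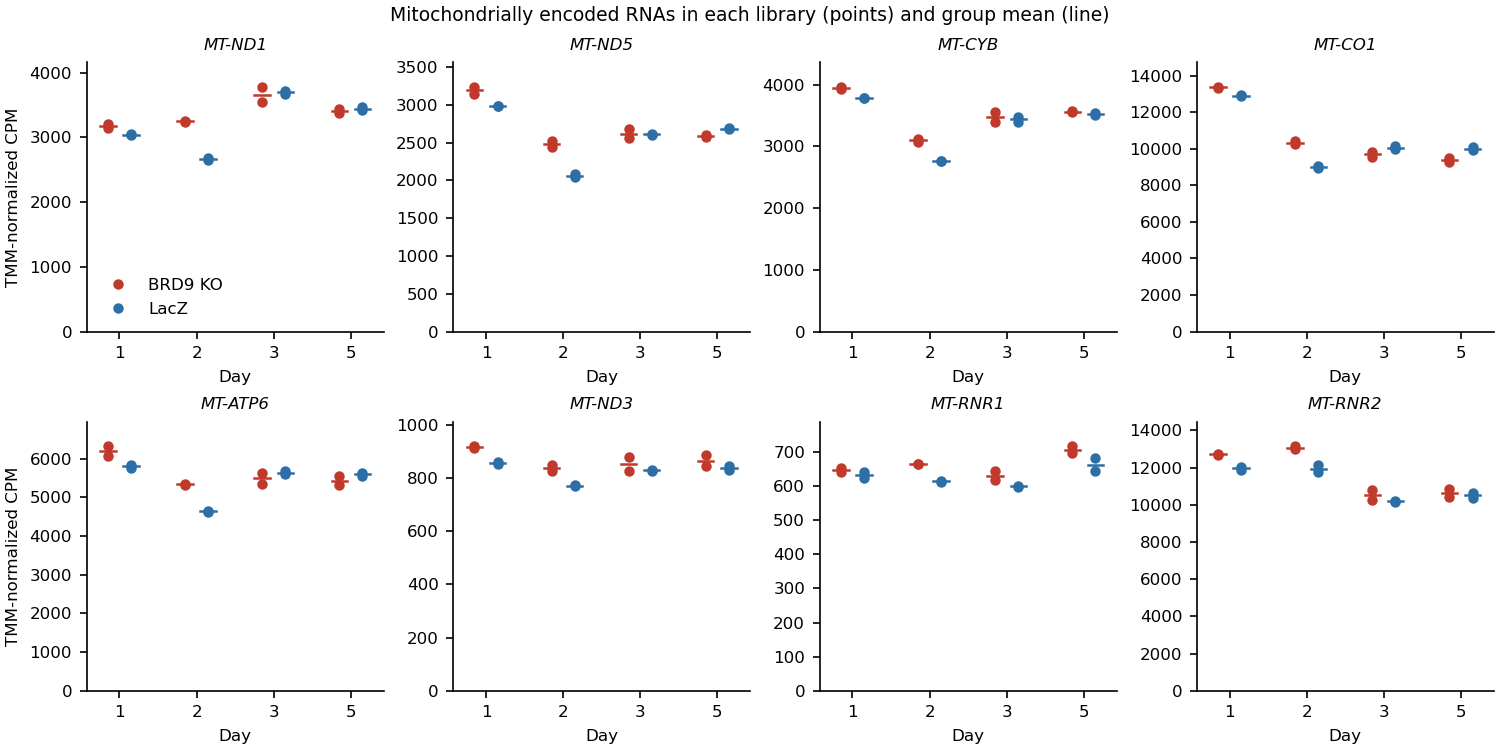
CPM (TMM-scaled) of 6 mitochondrial mRNAs and both mitochondrial rRNAs in each of the 16 libraries by day, with BRD9 KO left of LacZ, points for libraries and lines for group means. On day 2 both BRD9 KO libraries of MT-ND1 (3235 and 3261 CPM) stand above both LacZ libraries (2659 and 2678 CPM), and for the mRNAs the LacZ libraries of day 2 are the lowest of the time course.

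For the mRNAs, the other days differed in size and direction. On day 1 the fold changes of all 13 mitochondrial mRNAs were positive, between 0.045 and 0.099, and for 12 of 13 both BRD9 KO libraries were above both LacZ libraries. That pattern held for 20.4% of all genes on day 1. Of the 13, 2 were called higher, against 0.273% of all genes and 8.33% of those 108 abundant nuclear genes. MT-ND5 had 3240.3 and 3148 CPM in the BRD9 KO libraries, against 2991 and 2981 CPM in the LacZ libraries on day 1 (log2 fold change 0.097, SE 0.018, edgeR adjusted p = 0.0164). MT-ATP6 had 6324 and 6075 CPM in BRD9 KO cells, against 5829.6 and 5766 CPM in LacZ cells (log2 fold change 0.096, SE 0.021, edgeR adjusted p = 0.0486). Both pairs of libraries were apart, but the calls were not stable. That of MT-ND5 was lost without BRD9 KO replicate 1 or without LacZ replicate 1 or 2 of that day (edgeR adjusted p = 0.237, 0.151 and 0.156). That of MT-ATP6 was lost without BRD9 KO replicate 1 or without LacZ replicate 1 or 2 of that day (edgeR adjusted p = 0.43, 0.216 and 0.283).

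On day 3 the median over the 13 mRNAs was -0.013 and 2 were called lower, both of complex IV, against 5.85% of all genes and 47.2% of the 108 abundant nuclear genes. MT-CO1 had 9556 and 9826 CPM in the BRD9 KO libraries, against 10129 and 10009 CPM in the LacZ libraries on that day (log2 fold change -0.055, SE 0.013, edgeR adjusted p = 0.0078), and the call was lost without BRD9 KO replicate 1 or without LacZ replicate 1 of that day (edgeR adjusted p = 0.151 and 0.137). MT-CO3, a core subunit of the same complex, had 4109 and 4266 CPM in BRD9 KO cells, against 4351 and 4352 CPM in LacZ cells (log2 fold change -0.056, SE 0.017, edgeR adjusted p = 0.0425), and its call was lost without BRD9 KO replicate 1 or without LacZ replicate 1 or 2 of that day (edgeR adjusted p = 0.426, 0.194 and 0.141). Neither difference exceeded a few percent of the level. The 2 rRNAs were not called on day 3, and both fold changes were positive (0.049 and 0.071). In both, the BRD9 KO libraries lay above the LacZ libraries, a pattern held by 25.3% of all genes.

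On day 5 only MT-CO1 among the mRNAs was called, and it was lower, with 9266 and 9522 CPM in BRD9 KO cells, against 9924 and 10071 CPM in LacZ cells (log2 fold change -0.090, SE 0.013, edgeR adjusted p = 5.64e-05). This call held without each of the 4 libraries in turn, but the number called lower was 5 with no count filter, 4 with the libraries of day 5 alone and 5 with a replicate block. Over all genes 7.45% were called lower on day 5, and 50.0% of the 108 abundant nuclear genes were. The median of the 13 mRNAs was -0.041, and for 9 of 13 both BRD9 KO libraries were below both LacZ libraries, against 27.2% of all genes. The rRNA MT-RNR1 was called higher, against 7.53% of all genes, with 695 and 717 CPM in BRD9 KO cells, against 642 and 681 CPM in LacZ cells (log2 fold change 0.095, SE 0.026, edgeR adjusted p = 0.0154). That call was lost without BRD9 KO replicate 2 or without LacZ replicate 1 of that day (edgeR adjusted p = 0.181 and 0.28).

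**Figure D2:**
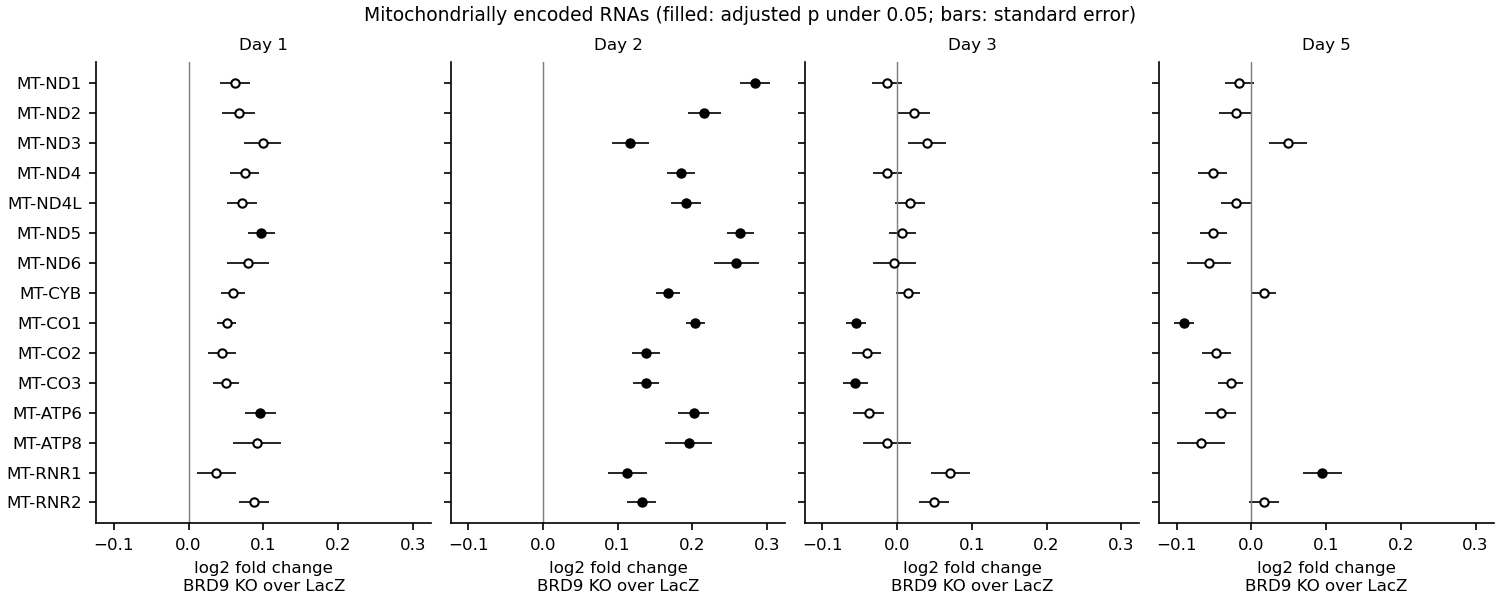
Log2 fold change (BRD9 KO minus LacZ) of the 15 mitochondrial genes on days 1, 2, 3 and 5, one panel per day, with bars for the standard error and filled points for an edgeR adjusted p under 0.05. All points lie right of 0 on days 1 and 2 and are filled on day 2, and on days 3 and 5 the mRNAs lie close to 0, with MT-CO1 the lowest on day 5 (-0.090).

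The change of the effect with time was tested as the mean effect on days 3 and 5 minus the mean effect on days 1 and 2. It was negative for all 13 mitochondrial mRNAs and called for 12, all but MT-ND3, against 4.03% of all genes called lower and 31.5% of the 108 abundant nuclear genes. The median was -0.16. MT-ND5 changed by -0.20 ± 0.018 (SE, edgeR adjusted p = 4e-07), MT-CO1 by -0.20 ± 0.013 (SE, edgeR adjusted p = 5.22e-09) and MT-CYB by -0.098 ± 0.016 (SE, edgeR adjusted p = 0.000527). These 12 calls held without each library in turn. Day 2 carried much of this contrast: with day 2 left out, 7 of 13 stayed called, namely MT-ND4, MT-ND5, MT-CO1, MT-CO2, MT-CO3, MT-ATP6 and MT-ATP8, against 3.78% of all genes but 39.8% of the 108 abundant nuclear genes. The comparison without day 2 was chosen after seeing the data. In LacZ cells alone, day 5 minus day 1, 2 of 13 mRNAs were higher and 8 lower, while 8 of 81 nuclear members were higher and 3 lower, against 12.7% and 12.9% of all genes and 33.3% and 48.1% of the 108 abundant nuclear genes.

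The levels of each guide over time were also compared after seeing the data. For all 13 mitochondrial mRNAs, the 2 LacZ libraries of day 2 were the lowest 2 of the 16 libraries in CPM, which was true of 0 of the 2 rRNAs. In LacZ cells 12 of 13 mRNAs were lower on day 2 than on day 1 (median log2 fold change -0.33, against 16.5% of all genes called lower). In BRD9 KO cells 11 of 13 were lower on day 2 than on day 1 (median -0.24, against 15.9% of all genes), and MT-ND2, a membrane subunit of complex I, was higher (0.12, against 14.3% of all genes called higher). Of the 108 abundant nuclear genes, 59.3% were lower on day 2 than on day 1 in BRD9 KO cells and 29.6% higher, and 59.3% were lower in LacZ cells, so a fall between these days was common among abundant transcripts. Levels thus declined between these days in both arms, with a median nearer 0 in BRD9 KO cells. The difference of the effect between day 2 and day 1 itself was called for 5 of 13 mRNAs, all positive, against 0.16% of all genes and 5.56% of the 108 abundant nuclear genes.

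Between day 2 and day 3 the arms differed in the other direction. In LacZ cells all 13 mRNAs were higher on day 3 than on day 2 (median 0.28, against 13.0% of all genes called higher). In BRD9 KO cells 7 were higher and 1 was lower (median 0.076, against 15.3% of all genes in each direction). Of the 108 abundant nuclear genes, 59.3% were higher on day 3 than on day 2 in LacZ cells, and in BRD9 KO cells 54.6% were higher and 24.1% lower, so the 7 of 13 in BRD9 KO cells were near that share. The effect on day 3 minus that on day 2 was called for 12 of 13, all negative, against 0.526% of all genes and 5.56% of the 108 abundant nuclear genes. MT-ND1 shows the sequence: in BRD9 KO cells it was at 3213 and 3148 CPM on day 1, 3235 and 3261 on day 2, 3541 and 3784 on day 3 and 3373 and 3441 on day 5. In LacZ cells it was at 3053 and 3038 CPM on day 1, 2659 and 2678 on day 2, 3675 and 3721 on day 3 and 3427 and 3465 on day 5. The 2 LacZ libraries of day 2 are the only ones of that guide and day, so a property of those cultures and a difference due to the guide cannot be told apart.

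Set against the nuclear genes of the same complex, the mitochondrial share of the mRNA pool moved in all 4 mixed complexes on day 2. The ratio of summed mitochondrial mRNA TPM to summed nuclear member TPM over all complexes, with complex II in the nuclear sum, on day 2 was 5.35 and 5.25 in the BRD9 KO libraries, against 4.58 and 4.53 in the LacZ libraries. On day 1 it was 6.38 and 6.12 in BRD9 KO, against 5.98 and 5.85 in LacZ libraries, which also did not overlap. On day 3 it was 5.56 and 5.74 in BRD9 KO, against 5.53 and 5.61 in LacZ libraries, and on day 5 it was 5.42 and 5.57 in BRD9 KO, against 5.56 and 5.52 in LacZ libraries. Over all complexes the groups overlapped on these later days. The ratio is a description over chosen members and carries no test.

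By complex, the quotient of the BRD9 KO mean over the LacZ mean on day 2 was 1.19 for complex I, 1.12 for complex III, 1.15 for complex IV and 1.17 for complex V. Complex I had a ratio of 5.89 ± 0.137 in BRD9 KO and 4.93 ± 0.13 in LacZ cells on that day, and complex III 2.15 ± 0.026 in BRD9 KO and 1.92 ± 0.00389 in LacZ cells (SD, n = 2 each). On day 1 the quotients were 1.07, 1.02, 1.03 and 1.08 in the same order of complexes, with overlapping groups in complex III. On day 3 the groups did not overlap in complex I (1.03, both BRD9 KO libraries above) and complex IV (0.991, both below), and they overlapped in complex III (1.01) and complex V (1.02). On day 5 the quotient of complex III was 0.97, with both BRD9 KO libraries below both LacZ libraries, and the other 3 complexes overlapped. The nuclear sum itself was 1.95% to 1.98% of all TPM in the BRD9 KO libraries of day 2, against 2.00% to 2.02% in the LacZ libraries, and the mitochondrial sum was 10.4% in BRD9 KO against 9.13% to 9.15% in LacZ libraries. Most of the day 2 shift in the ratio was therefore in the mitochondrial numerator.

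**Figure D3:**
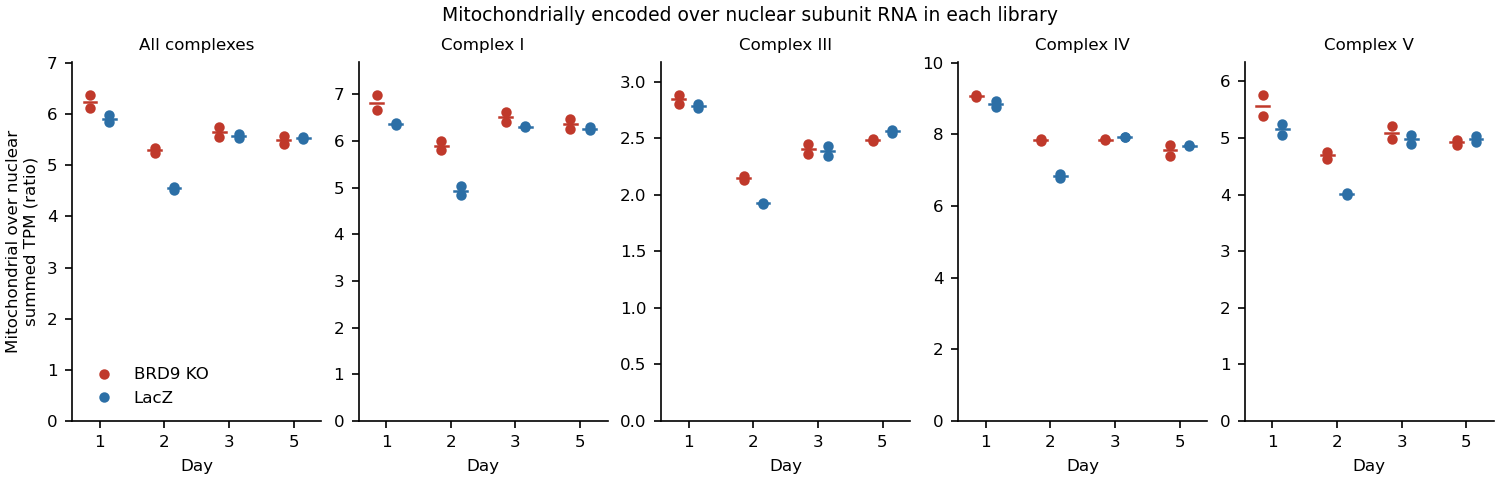
Ratio of summed mitochondrial mRNA TPM to summed nuclear member TPM per library, for all complexes and for complexes I, III, IV and V, by day, with BRD9 KO left of LacZ and lines for group means. Over all complexes the BRD9 KO libraries of day 2 (5.35 and 5.25) stand above the LacZ libraries (4.58 and 4.53), and on days 3 and 5 the groups overlap.

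Few nuclear members were called, and only on days 3 and 5. On days 1 and 2 none of the 81 was called (0 called by edgeR), against 0.539% and 2.7% of all genes. At an unadjusted edgeR p under 0.05 there were 6 and 15 of the 81, against 1531 and 2077 of the 15027 genes tested. On day 3, 1 was higher and 8 were lower, against 4.59% and 5.85% of all genes. On day 5, 3 were higher and 6 were lower, against 7.53% and 7.45% of all genes. Among the 3070 genes at or above the nuclear members' median abundance, 15.9% were called lower on day 3 and 18.4% on day 5. Of the same genes 9.71% and 14.2% were called higher, so lower calls outnumbered higher ones among them too. In all, 13 of 81 were called on either day and 68 were not. The balance of directions depended on the tool: on day 3 DESeq2 called 1 higher and 5 lower and limma-trend on log2 TPM 0 in either direction, and on day 5 DESeq2 called 2 higher and 3 lower, while limma-trend called 5 higher and 2 lower.

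As a group the nuclear members were shifted slightly down. Their median log2 fold change was -0.011, -0.029, -0.052 and -0.052 on days 1, 2, 3 and 5, with that of all genes within 0.001 of 0. On day 3 both BRD9 KO libraries were below both LacZ libraries for 38 of 81 nuclear members and above for 5, against 25.9% and 25.3% of all genes. On day 5 the counts were 38 below and 10 above, against 27.2% and 27.3% of all genes. Nuclear members are short, with a median effective length of 658 bases against 2044 for all genes tested. When the trend of fold change with length was removed, their median was 0.004, -0.027, -0.020 and -0.042 on the 4 days, and 4 in place of 8 were called lower on day 3.

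**Figure D4:**
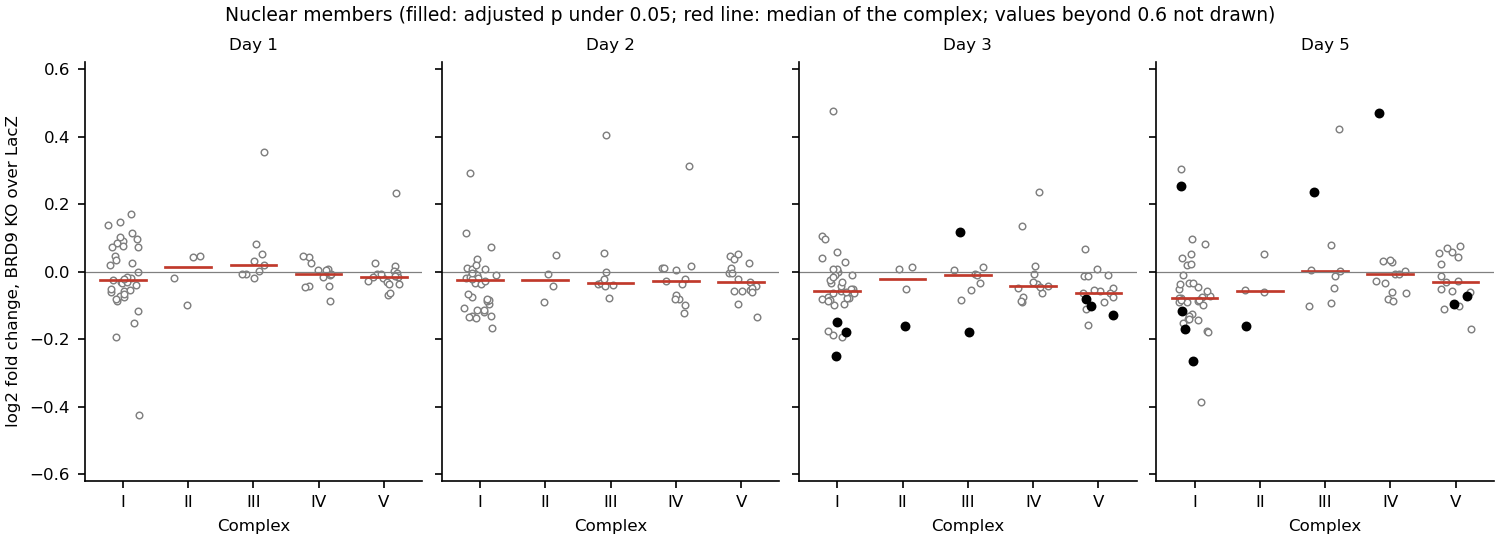
Log2 fold change (BRD9 KO minus LacZ) of the 81 nuclear members by complex on days 1, 2, 3 and 5, with filled points for an edgeR adjusted p under 0.05 and a red line for the median of the complex. The medians lie near or below 0, filled points appear on days 3 and 5 only, and 5 values beyond 0.6 in size, from low or split IDs of NDUFA7 and NDUFB8, are not drawn.

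Complex I had 38 nuclear members, and the called ones were mostly lower. NDUFV1 (ENSG00000167792.7, chr11:67373124-67380025), the flavin-bearing core subunit that takes electrons from NADH, was lower on both later days. It had 112 and 115 CPM in the BRD9 KO libraries, against 122 and 129 CPM in the LacZ libraries on day 3 (log2 fold change -0.15, SE 0.036, edgeR adjusted p = 0.0113). On day 5 it had 127 and 127 CPM in BRD9 KO cells, against 140.0 and 135 CPM in LacZ cells (log2 fold change -0.12, SE 0.036, edgeR adjusted p = 0.0322). Leaving out libraries cost both calls: that of day 3 was lost without BRD9 KO replicate 1 or without LacZ replicate 2 of that day (edgeR adjusted p = 0.124 and 0.162), and that of day 5 was lost without BRD9 KO replicate 1 or 2 or without LacZ replicate 1 of that day (edgeR adjusted p = 0.103, 0.12 and 0.254). NDUFS7 (ENSG00000115286.15, chr19:1383526-1395588), a core iron-sulfur subunit next to the quinone site, was lower on day 3 with 32.7 and 34.9 CPM in BRD9 KO cells, against 37.4 and 42.6 CPM in LacZ cells (log2 fold change -0.25, SE 0.078, edgeR adjusted p = 0.0472), a call lost without BRD9 KO replicate 1 or 2 or without LacZ replicate 2 of that day (edgeR adjusted p = 0.331, 0.071 and 0.422). Of the 7 core nuclear subunits in all, 2 were called lower on day 3 and 1 on day 5, and 0 were called higher.

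The accessory subunits of complex I moved in both directions. NDUFB10 (ENSG00000140990.10, chr16:2009539-2011976), a disulfide-bonded subunit of the membrane arm, was the only nuclear member of the complex called higher. It had 76.8 and 74.6 CPM in the BRD9 KO libraries, against 64.4 and 62.3 CPM in the LacZ libraries on day 5 (log2 fold change 0.25, SE 0.049, edgeR adjusted p = 0.0012), and the call held without each library. Its late minus early change was 0.20 ± 0.048 (SE, edgeR adjusted p = 0.0138), lost without BRD9 KO day 1 replicate 2 (edgeR adjusted p = 0.0615). NDUFB3 (ENSG00000119013.4, chr2:201936156-201950473), also of the membrane arm, was lower on day 5 with 26.9 and 24.2 CPM in BRD9 KO cells, against 31.2 and 29.6 CPM in LacZ cells (log2 fold change -0.26, SE 0.067, edgeR adjusted p = 0.00988), a call lost without BRD9 KO replicate 2 or without LacZ replicate 1 of that day (edgeR adjusted p = 0.276 and 0.131). NDUFB11 (ENSG00000147123.10, chrX:47001470-47004865), an X-linked membrane arm subunit, was lower with 57.1 and 61.3 CPM in BRD9 KO cells, against 65.3 and 68.9 CPM in LacZ cells (log2 fold change -0.17, SE 0.052, edgeR adjusted p = 0.0318), lost without BRD9 KO replicate 1 or without LacZ replicate 2 of that day (edgeR adjusted p = 0.191 and 0.206). NDUFA6 (ENSG00000184983.5, chr22:42481530-42486888), of the matrix arm, was lower on day 3 with 60.3 and 63.0 CPM in BRD9 KO cells, against 73.6 and 65.7 CPM in LacZ cells (log2 fold change -0.18, SE 0.056, edgeR adjusted p = 0.0478), lost without BRD9 KO replicate 1 or 2 or without LacZ replicate 1 of that day (edgeR adjusted p = 0.324, 0.0745 and 0.498). Reads of NDUFA6 cannot be told apart from those of the overlapping antisense gene NDUFA6-AS1, listed at 3.78 to 6.28 TPM in BRD9 KO cells, against 3.99 to 6.38 TPM in LacZ cells.

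Complex II had 4 members, of which SDHA was lower on days 3 and 5 and the other 3 were not called on any day. SDHA (ENSG00000073578.12, chr5:218418-257197), the flavoprotein that oxidizes succinate, had 162 and 158 CPM in the BRD9 KO libraries, against 175 and 183 CPM in the LacZ libraries on day 3 (log2 fold change -0.16, SE 0.037, edgeR adjusted p = 0.00816). On day 5 it had 169.6 and 163 CPM in BRD9 KO cells, against 182 and 189 CPM in LacZ cells (log2 fold change -0.16, SE 0.037, edgeR adjusted p = 0.00567). The call of day 3 was lost without BRD9 KO replicate 2 or without LacZ replicate 2 of that day (edgeR adjusted p = 0.0639 and 0.117), and that of day 5 was lost without BRD9 KO replicate 2 or without LacZ replicate 2 of that day (edgeR adjusted p = 0.0967 and 0.0715). SDHA lies 593209 bases from BRD9, the gene targeted by the guide, on chromosome 5 (chr5:850406-892916). NDUFS6, 908605 bases away on the other side of BRD9, had log2 fold changes of -0.081 and -0.084 on days 3 and 5 and was not called. Near-identical copies could share reads with SDHA: SDHAP1 was listed at 30.5 to 66.1 TPM in BRD9 KO cells, against 37.4 to 49.0 TPM in LacZ cells, so the SDHA values are uncertain to that extent.

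Complex III had 9 members, and 1 was called in each direction. UQCRC2 (ENSG00000140740.6, chr16:21964609-21994981), a large core protein of the matrix side, was higher on both later days. It had 395 and 416 CPM in the BRD9 KO libraries, against 373 and 373 CPM in the LacZ libraries on day 3 (log2 fold change 0.12, SE 0.033, edgeR adjusted p = 0.0252). On day 5 it had 414 and 427 CPM in BRD9 KO cells, against 357 and 358 CPM in LacZ cells (log2 fold change 0.23, SE 0.033, edgeR adjusted p = 4.6e-05). The day 5 call held without each library, while that of day 3 was lost without BRD9 KO replicate 2 or without LacZ replicate 1 or 2 of that day (edgeR adjusted p = 0.235, 0.102 and 0.119). UQCRQ (ENSG00000164405.6, chr5:132202322-132204539), a small subunit that contacts cytochrome b, was lower on day 3 with 46.3 and 47.6 CPM in BRD9 KO cells, against 52.3 and 53.8 CPM in LacZ cells (log2 fold change -0.18, SE 0.055, edgeR adjusted p = 0.0454), a call lost without BRD9 KO replicate 1 or 2 or without LacZ replicate 1 or 2 of that day (edgeR adjusted p = 0.276, 0.0921, 0.132 and 0.242). UQCRH, the most abundant member, was not called on any day.

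Complex IV had 13 nuclear members, and 1 was called. COX6B2 (ENSG00000160471.8, chr19:55860674-55866087), a paralog of COX6B1 best known from testis, was higher on day 5 with 14.3 and 14.4 CPM in the BRD9 KO libraries, against 10.6 and 10.1 CPM in the LacZ libraries (log2 fold change 0.47, SE 0.11, edgeR adjusted p = 0.0063). The call was lost without LacZ replicate 2 of that day (edgeR adjusted p = 0.0542). The levels were low beside COX6B1, which had 83.7 and 84.0 CPM in BRD9 KO cells, against 85.9 and 85.1 CPM in LacZ cells on that day and was not called. Of the other tissue-specific paralogs, COX4I2, COX6A2 and COX7B2 were listed at 0 in every library. COX7A1, the muscle form, reached at most 0.45 TPM in BRD9 KO and 0.81 TPM in LacZ libraries, and NDUFA4L2 at most 0.56 TPM in BRD9 KO and 0.42 TPM in LacZ libraries. The ubiquitous forms COX4I1, COX6A1, COX7A2, COX7A2L, COX8A and NDUFA4 were not called on any day, with log2 fold changes on day 5 of -0.007, -0.008, -0.061, 0.027, -0.087 and -0.063 in that order.

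Complex V had 17 nuclear members by gene name, ATP5S and ATP5SL included, and those called lower included both main proteins of its catalytic head. ATP5A1 (ENSG00000152234.11, chr18:43660214-43684300), the alpha subunit, had 738 and 729 CPM in the BRD9 KO libraries, against 793 and 782 CPM in the LacZ libraries on day 3 (log2 fold change -0.10, SE 0.017, edgeR adjusted p = 0.000519). On day 5 it had 749 and 764 CPM in BRD9 KO cells, against 799.8 and 819 CPM in LacZ cells (log2 fold change -0.096, SE 0.017, edgeR adjusted p = 0.000495). Both calls, and the late minus early change of -0.092 ± 0.017 (SE, edgeR adjusted p = 0.00165), held without each library in turn, the only lower calls among nuclear members on days 3 and 5 to do so, although limma-trend on log2 TPM called none of them (adjusted p = 0.0661, 0.0642 and 0.131). ATP5B (ENSG00000110955.4, chr12:57031959-57039768), the beta subunit that binds and makes ATP, had 761 and 769 CPM in BRD9 KO cells, against 814 and 804 CPM in LacZ cells on day 3 (log2 fold change -0.082, SE 0.016, edgeR adjusted p = 0.00281), lost without LacZ replicate 1 of that day (edgeR adjusted p = 0.0622). On day 5 it had 713 and 733 CPM in BRD9 KO cells, against 761 and 762 CPM in LacZ cells (log2 fold change -0.073, SE 0.017, edgeR adjusted p = 0.00448), lost without BRD9 KO replicate 1 of that day (edgeR adjusted p = 0.0653). These differences amount to a few percent of the level, with non-overlapping libraries. Of the 5 subunits of the catalytic head, 2 were lower on each of these days and the other 3 were not called. ATP5A1 and ATP5B belong by abundance to the 108 abundant nuclear genes, of which 47.2% and 50.0% were called lower on days 3 and 5. Such calls were thus common at their abundance. The other 3 subunits are far less abundant, so 2 of 5 cannot be set against that share. Of the 3070 genes at or above the nuclear members' median abundance, 15.9% and 18.4% were called lower on these days.

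The proton-carrying ring of complex V is made of subunit c, whose identical mature protein is encoded by ATP5G1, ATP5G2 and ATP5G3. ATP5G3 (ENSG00000154518.5, chr2:176040986-176046438) was lower on day 3 with 174 and 179 CPM in the BRD9 KO libraries, against 192 and 193 CPM in the LacZ libraries (log2 fold change -0.13, SE 0.036, edgeR adjusted p = 0.0297), a call lost without BRD9 KO replicate 1 or 2 or without LacZ replicate 1 or 2 of that day (edgeR adjusted p = 0.232, 0.0537, 0.126 and 0.142). Its share of the summed TPM of the 3 genes was 39.9% and 40.3% in BRD9 KO libraries of day 3, against 41.8% and 42.5% in LacZ libraries. ATP5G1 took 25.9% and 25.8% in BRD9 KO, against 24.3% and 24.6% in LacZ libraries. On day 5 ATP5G1 took 27.8% and 28.2% in BRD9 KO, against 26.1% and 24.8% in LacZ libraries. ATP5G1 and ATP5G2 were not called on any day.

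**Figure D5:**
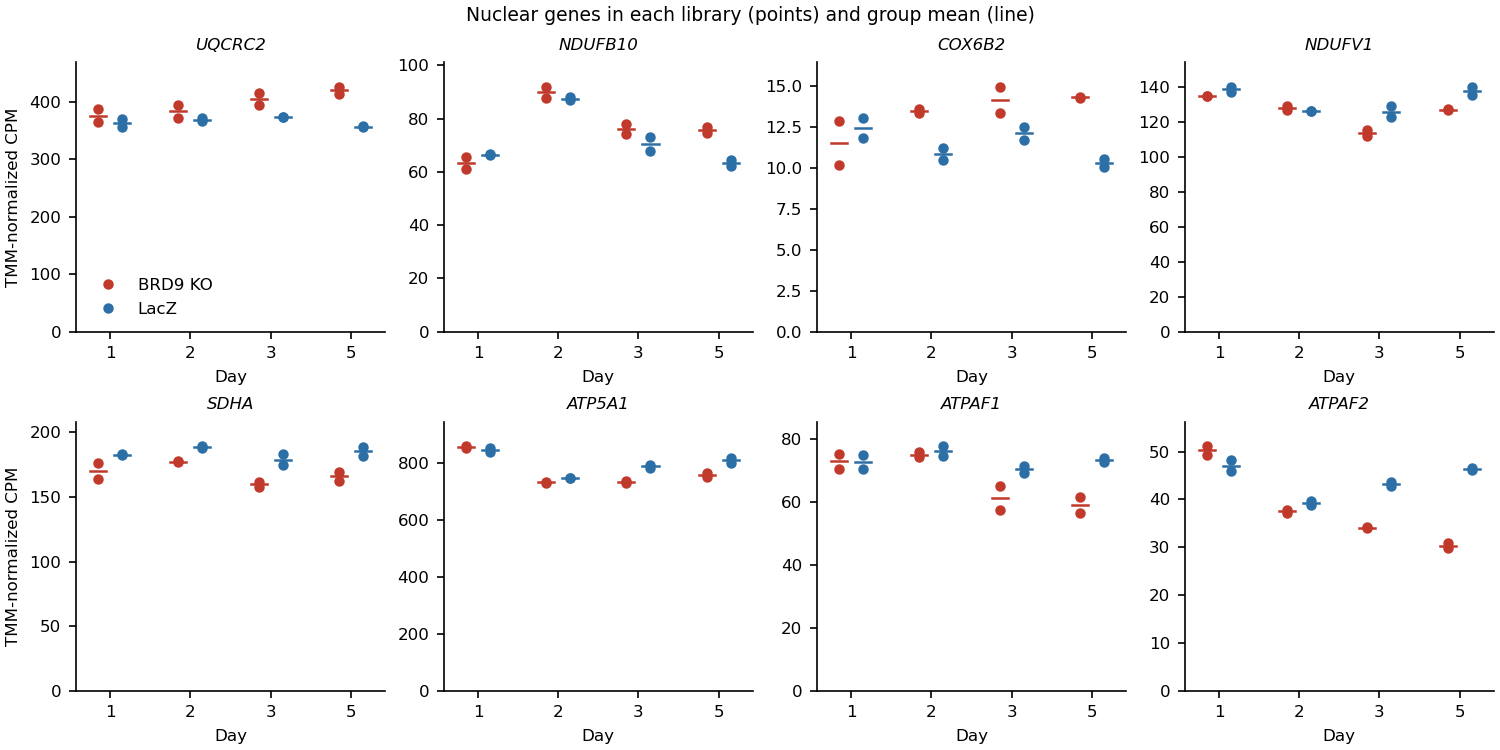
CPM (TMM-scaled) of 6 nuclear members and of the complex V assembly factors ATPAF1 and ATPAF2 in each library by day, with BRD9 KO left of LacZ, points for libraries and lines for group means. UQCRC2, NDUFB10 and COX6B2 stand higher in BRD9 KO on day 5, while ATP5A1 stands lower on days 3 and 5 and ATPAF2 is at 29.8 and 30.9 CPM in BRD9 KO against 46.5 and 46.1 CPM in LacZ libraries on day 5.

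Of the nuclear members, 4 had a late minus early change that was called, against 7.43% of all genes. NDUFB10 and UQCRC2 were positive, and NDUFV1 and ATP5A1 were negative. UQCRC2 changed by 0.12 ± 0.033 (SE, edgeR adjusted p = 0.0275), a call lost without any of 10 of the 16 libraries (highest edgeR adjusted p = 0.077), all but BRD9 KO replicate 2 and LacZ replicate 1 of day 1, both replicates 2 of day 2, and BRD9 KO replicate 1 of days 3 and 5. NDUFV1 changed by -0.12 ± 0.036 (SE, edgeR adjusted p = 0.0466), lost without any of 14 (highest edgeR adjusted p = 0.126) and kept only without LacZ replicate 1 of day 3 or LacZ replicate 2 of day 5. The symbols NDUFA7, NDUFB8 and UQCR11 each had 2 IDs. The extreme fold changes of day 5 were those of the 2 NDUFA7 IDs. ENSG00000167774.2 had 5.54 and 2.07 CPM in BRD9 KO cells, against 0.00 and 2.67 CPM in LacZ cells, and ENSG00000267855.1 had 12.4 and 15.2 CPM in BRD9 KO cells, against 21.3 and 14.9 CPM in LacZ cells. Neither ID was called on any day. With the IDs summed, NDUFA7 had log2 fold changes of -0.12, 0.056, -0.12 and -0.16 on the 4 days and was not called, and neither were NDUFB8 and UQCR11.

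Promoters of respiratory chain genes are known to hold sites for nuclear respiratory factor 1 (NRF1), ETS-family proteins such as GABP, and YY1. RefSeq windows of GRCh38.p14, 250 bases before to 50 bases after the start site, were available for 64 of the 78 nuclear symbols. Gene coordinates given above are of GRCh37, so the positions of the windows below do not match them. For NRF1 the letters were GCGCA and GCGC with any 1 base between them (both strands). They were in a window of 15 of 64 (23.4%), against 6.98% of all 27305 genes with windows. CCGGAAGT (ETS, both strands) was in 11 of 64 (17.2%), against 4.95%. AAGATGGCG (YY1, both strands) was in 9 of 64 (14.1%), against 2.14%. A match is a description of letters and not of binding. Windows around matches in the called genes SDHA, UQCRQ, ATP5A1 (now ATP5F1A), NDUFS7 and NDUFA6 are shown on the strand of each gene, with the matched letters in capitals, since these genes were called on days 3 or 5.
SDHA, chr5:218144-218173, plus strand: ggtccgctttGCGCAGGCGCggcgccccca
SDHA, chr5:218193-218222, plus strand: gtggcatggtGCGCAGGCGCgatgtccccc
SDHA, chr5:218242-218271, plus strand: ccggcgtggtGCGCAGGCGCggtatccccc
SDHA, chr5:218291-218320, plus strand: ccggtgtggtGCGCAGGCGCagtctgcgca
UQCRQ, chr5:132866577-132866606, plus strand: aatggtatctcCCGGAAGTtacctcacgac
ATP5A1, chr18:46098327-46098356, minus strand: cgaggggcagtACTTCCGGgtcaggtgggc
NDUFS7, chr19:1383914-1383943, plus strand: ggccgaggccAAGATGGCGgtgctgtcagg
NDUFA6, chr22:42090728-42090757, minus strand: atgctttggcAAGATGGCGgggagcggcgt
SDHA held 4 NRF1 matches upstream of its start site, ATP5A1 held the ETS letters in reverse complement, and in NDUFS7 and NDUFA6 the YY1 letters began 17 and 25 bases after the start site. Median log2 fold changes of members with and without the letters lay close together. For NRF1 they were -0.035 with and -0.048 without on day 3, and -0.055 with and -0.046 without on day 5, with 1 of 15 and 5 of 49 called lower on day 3. For ETS 2 of 11 with the letters and 4 of 53 without were called lower on day 3, and for YY1 2 of 9 with and 4 of 55 without. On day 5 the counts called lower were 1 of 15 with and 4 of 49 without for NRF1. They were 1 of 11 and 4 of 53 for ETS, and 0 of 9 and 5 of 55 for YY1. On day 2, 0 of the 81 nuclear members were called, so these sets could not differ in calls.

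The genes that make, process and assemble these transcripts and complexes were read from lists of known factors. Of 34 genes for mitochondrial transcription and RNA processing, which include the RNA polymerase POLRMT and the transcription factor TFAM, 1 was higher on day 1, none was called on day 2 (0 by edgeR), 2 were lower on day 3, and 1 was higher and 1 lower on day 5. Their median was 0.006 on day 1 and -0.015 on day 2. LRPPRC, which stabilizes mitochondrial mRNAs, was higher on day 1 with 511 and 509 CPM in the BRD9 KO libraries, against 474 and 470.4 CPM in the LacZ libraries (log2 fold change 0.11, SE 0.024, edgeR adjusted p = 0.0464). Its partner SLIRP was lower on day 3 with 50.9 and 52.5 CPM in BRD9 KO cells, against 58.0 and 59.0 CPM in LacZ cells (log2 fold change -0.18, SE 0.047, edgeR adjusted p = 0.0166). PTCD3, a protein of the mitochondrial ribosome, was lower on days 3 and 5 (-0.16 and -0.12), and FASTKD1, of a family of mitochondrial RNA-binding proteins, was higher on day 5 (0.19). LRPPRC, SLIRP and other genes of these lists that were called in other comparisons than that of day 5 were named after their values were seen.

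Of 13 genes for replication of the mitochondrial genome and its nucleotide supply, 0 were called on any day by edgeR. Their median log2 fold change was -0.017, 0.044, 0.033 and 0.119 on days 1, 2, 3 and 5. Of 10 tested regulators of mitochondrial biogenesis, only NRF1 was called in the comparisons by day. It was lower on day 2 with 15.7 and 14.7 CPM in the BRD9 KO libraries, against 19.9 and 19.3 CPM in the LacZ libraries (log2 fold change -0.36, SE 0.092, edgeR adjusted p = 0.0424) and on day 3 with 15.4 and 14.5 CPM in BRD9 KO cells, against 17.6 and 20.1 CPM in LacZ cells (log2 fold change -0.33, SE 0.091, edgeR adjusted p = 0.025), at a low level. Over all genes, 1.58% were called lower on day 2 and 5.85% on day 3. The coactivator PPRC1 was called in the late minus early change alone (0.13, edgeR adjusted p = 0.0417).

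Assembly factors help the subunits fold and join. Of 3 assembly factors of complex V, 2 were lower on days 3 and 5. ATPAF2, the chaperone of the alpha subunit, had 34.0 and 34.2 CPM in the BRD9 KO libraries, against 43.7 and 42.8 CPM in the LacZ libraries on day 3 (log2 fold change -0.34, SE 0.051, edgeR adjusted p = 0.000157). On day 5 it had 29.8 and 30.9 CPM in BRD9 KO cells, against 46.5 and 46.1 CPM in LacZ cells (log2 fold change -0.61, SE 0.052, edgeR adjusted p = 9.67e-08). ATPAF1, the chaperone of the beta subunit, had 56.6 and 61.6 CPM in BRD9 KO cells, against 72.8 and 74.1 CPM in LacZ cells on day 5 (log2 fold change -0.30, SE 0.058, edgeR adjusted p = 0.00103). These chaperones act on the same subunits, ATP5A1 and ATP5B, whose mRNAs were lower by smaller amounts.

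Among the assembly factors of the other complexes, 1 of 14 for complex I was lower on day 3 (FOXRED1, -0.39) and 1 of 6 for complex III (BCS1L, which inserts the Rieske protein, -0.37). On day 5, 1 of 4 for complex II was lower (ACN9, -0.31), and 1 of 23 for complex IV was higher (COX19, 0.29). Of 6 carriers and subunits outside the name patterns, cytochrome c (CYCS) was lower on day 3 (-0.083) and the ATP synthase inhibitor ATPIF1 was lower on day 5 (-0.13).

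Of 13 tricarboxylic acid cycle genes, which feed electrons to complexes I and II, 1 was lower on day 2, 2 on day 3 and 2 on day 5. DLST, a subunit of 2-oxoglutarate dehydrogenase, was lower on both later days (-0.16 and -0.19), OGDH of the same enzyme on day 3 (-0.13), SUCLG1 on day 5 (-0.20) and IDH3A on day 2 (-0.21). Of 18 tested genes for import, channels and chaperones, 1 was higher and 4 were lower on day 3, and 2 were higher and 3 lower on day 5. VDAC1, the outer membrane channel, was higher on both days (0.078 and 0.11) and the import receptor TOMM20 on day 5 (0.10). The import receptor TOMM70A was lower on both days (-0.18 and -0.14), the co-chaperonin HSPE1 on day 5 (-0.16), and PHB2 and the ADP/ATP carrier SLC25A5 on day 3 (-0.15 and -0.092). The carrier SLC25A6 was lower on days 2, 3 and 5 (-0.084, -0.097 and -0.12). These lists are to be read against the 4.59% and 5.85% of all genes called higher and lower on day 3, and 7.53% and 7.45% on day 5. Abundant genes in the lists are to be read against larger shares. Of the 3070 genes at or above the nuclear members' median abundance, 9.71% were called higher and 15.9% lower on day 3. Their shares on day 5 were 14.2% and 18.4%. On day 1, 0.273% of all genes were called higher, and on day 2, 1.58% were called lower. Of the 3070 genes these shares were 1.21% and 5.24%.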

How the data were processed

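RNA sequencing libraries of BRD9 KO and LacZ G401 cells were compared, 2 per group and day. Per the labels and the study's methods, total RNA was extracted with TriZol, libraries were made with the NEBNext Ultra kit and reads were aligned to hg19 with STAR. The authors quantified genes with RSEM and used DESeq2, and versions are not given in the sources used here. The deposited expected counts (35.7% of those above 0 not whole) were rounded. The deposited TPM values, scaled by length and library, served for levels, ratios and an alternative.

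Genes passing filterByExpr (minimum count 10, minimum total 15) were fitted with edgeR 4.0.16 in R 4.3.3 (TMM, quasi-likelihood, a mean per guide and day, all 16 libraries), leaving 8 residual degrees of freedom and a common biological coefficient of variation of 0.023, so differences of a few percent can be called in abundant genes. The methods name biological replicates without saying how they were separated, and p-values measure the spread between these libraries. Alternatives were DESeq2's size factors, DESeq2 1.42.0, limma-trend (limma 3.58.1) on log2 of TPM, no filter, only a contrast's libraries, a replicate block, scaling on nuclear genes, nuclear copies of mitochondrial genes summed, removal of the length trend, each library left out, and, chosen after seeing the data, IDs of a symbol summed and day 2 left out. The fits were tested on simulated data.

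Members and lists were chosen with earlier results of these data known. Named genes were the mitochondrial genes, per nuclear complex the most abundant member and up to 3 called members per direction and day with the smallest p, the paralog sets, the extreme fold changes of day 5 and up to 2 called genes per direction in each list on day 5. MT-ATP6 and MT-ATP8 were kept although their symbols end like pseudogene names, and NDUFA4 was placed in complex IV. ATP5S and ATP5SL (now DMAC2L and DMAC2) were counted in complex V by name alone. The 22 mitochondrial tRNA entries were at 0 in every library.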

Additional observations from a re-analysis of the deposited data

Results flagged for a closer look

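In 17 members the BRD9 KO minus LacZ difference was not the same early and late: the mean log2 difference on days 3 and 5 minus that on days 1 and 2 had an edgeR adjusted p under 0.05. In 13 mitochondrial genes it was negative. The complex I subunits had -0.188 (MT-ND1), -0.141 (MT-ND2), -0.162 (MT-ND4), -0.133 (MT-ND4L), -0.203 (MT-ND5) and -0.200 (MT-ND6). MT-CYB of complex III had -0.098. The complex IV subunits had -0.200 (MT-CO1), -0.135 (MT-CO2) and -0.135 (MT-CO3), and those of complex V had -0.189 (MT-ATP6) and -0.184 (MT-ATP8). The large rRNA MT-RNR2 had -0.077, a call lost without any of 6 of the 16 libraries (LacZ replicate 1 of days 1 and 3, BRD9 KO replicate 2 and LacZ replicate 2 of day 2, BRD9 KO replicate 1 and LacZ replicate 2 of day 5), with a highest edgeR adjusted p of 0.0625. In 4 nuclear members the values were 0.201 (NDUFB10), -0.121 (NDUFV1), 0.123 (UQCRC2) and -0.092 (ATP5A1). The LacZ libraries of day 2 were the lowest 2 of 16 for all 13 mitochondrial mRNAs, and their part in these differences cannot be told apart from that of the guide.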

How the results depend on the processing

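Of 56 calls of named members, 988 recomputations under the alternatives kept the call in 846 and lost it in 142, and 0 reversed direction. limma-trend on log2 TPM lost 23, DESeq2 10, removal of the length trend 8, no filter 3, and scaling on nuclear genes, summed nuclear copies and summed IDs 0 each. Leaving out day 2 lost 8 of the 17 late minus early calls. The 2 libraries per group limit what can be seen: differences of a few percent in the nuclear members mostly depend on single libraries. Calls of genes outside the members were not recomputed. The causes of the changes below were not tested.

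Mitochondrial mRNAs called higher on day 1 (2) numbered 6 with no filter, 4 with DESeq2, 0 with limma-trend, 6 with only the day's libraries and 8 with the length trend removed. On day 3, those called higher (0) numbered 1 with the length trend removed, and those called lower (2) numbered 4 with no filter, 1 with DESeq2, 0 with limma-trend and 1 with the length trend removed. Those called lower on day 5 (1) numbered 5 with no filter and 4 with only the day's libraries. Late minus early calls (12) numbered 7 without day 2. Nuclear members called lower on days 1 and 2 (0 each) numbered 1 each with no filter. On day 3, those higher (1) numbered 0 with limma-trend, and those lower (8) numbered 5 with DESeq2, 0 with limma-trend and 4 with the length trend removed. On day 5, those higher (3) numbered 5 with no filter and 5 with limma-trend, and those lower (6) numbered 3 with DESeq2 and 2 with limma-trend. Nuclear late minus early calls (4) numbered 2 with DESeq2 and 1 with limma-trend, and LacZ day 5 minus day 1 calls (11) numbered 7 and 6. From counts in place of TPM, the ratio quotient was 0.988 in place of 0.991 for complex IV on day 3 and 1.01 in place of 0.988 for complex V on day 5. For complex IV on day 5 it was 0.972 in place of 0.982. By counts both BRD9 KO libraries were then below both LacZ libraries, where by TPM the groups overlapped.

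With a replicate block, mitochondrial mRNAs called higher on day 1 numbered 5 in place of 2 and those called lower on day 5 numbered 5 in place of 1, and 3 of the 56 named calls were lost. Over all genes, same-numbered BRD9 KO and LacZ libraries deviated from their group means with correlations of -0.0123, -0.0489, -0.0245 and -0.0176 on days 1, 2, 3 and 5, and over genes with a log2 CPM over 5 with correlations of -0.0435, -0.118, 0.101 and 0.177. Not every pair was over 0.1, so the numbers were not treated as pairs.

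Without each library in turn, mitochondrial mRNAs called higher numbered 0 to 4 on day 1, 12 to 13 on day 2, 0 to 2 on day 3 and 0 on day 5, and those called lower 0 to 5 on day 3 and 1 to 3 on day 5. Nuclear members called higher numbered 0 to 1 on day 3 and 3 on day 5, and those lower 3 to 5 on day 3 and 3 to 6 on day 5. Late minus early calls numbered 12 to 13 for mitochondrial mRNAs and 2 to 6 for nuclear members, and LacZ day 5 minus day 1 calls 10 for mitochondrial mRNAs and 5 to 9 for nuclear members.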
